A study of Mus musculus with 10 samples.

Results

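Class IIa histone deacetylases act through other proteins, and 9 of the genes for those partners were followed here in the kidney cortex of mice with aristolochic acid nephropathy (AAN). They were chosen by name, for their roles, with earlier results of these data known. They are the 4 transcription factors Mef2a, Mef2b, Mef2c and Mef2d, the corepressor Ncor1, the repressor Bcl6, and the 3 kinases Sik1, Sik2 and Prkd1, of 21792 genes in all. Hdac7 and Hdac9, 2 class IIa enzymes, were measured beside them. The study asked which deacetylases change in fibrotic kidney, and profiled the RNA of the renal cortex of wild-type male C57BL/6 mice. At 8 weeks of age, 6 mice received aristolochic acid, a plant nephrotoxin, as 1 intraperitoneal injection of 5 mg/kg, and 4 sham mice received PBS in the same volume, and all were sampled at day 28. Each mouse gave its own library and none were pooled. The sham mice are numbered 1 to 4 (tags B607, B634, B636 and H249) and the AAN mice 1 to 6 (tags A483, B614, B630, B639, B642 and B666).

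Class IIa deacetylases have little catalytic activity of their own toward histones. MEF2 factors hold them at DNA, and NCoR corepressors link them to a complex with the class I enzyme HDAC3. Salt-inducible kinases, protein kinase D and calcium/calmodulin-dependent kinases phosphorylate them, after which 14-3-3 proteins keep them out of the nucleus and MEF2 targets can be transcribed. BCL6 is a transcriptional repressor, best known in germinal centre B cells, that recruits the same corepressors.

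The 4 MEF2 genes share their DNA-binding end, the MADS box and the adjoining MEF2 domain, so the first 86 codons of each are shown to let them be compared. The bases come from the GENCODE release used for the gene models (GRCm38), 5′ to 3′, from the longest consensus coding transcript, and capitals mark bases that differ from Mef2a. In Mef2a the stretch lies in 2 coding exons between chr7:67295375-67316845 on the minus strand, and in Mef2b in 2 coding exons between chr8:70164251-70165251 on the plus strand. In Mef2c it lies in 2 coding exons between chr13:83575677-83592981 and in Mef2d in 2 between chr3:88155809-88156525, both on the plus strand.
Mef2a: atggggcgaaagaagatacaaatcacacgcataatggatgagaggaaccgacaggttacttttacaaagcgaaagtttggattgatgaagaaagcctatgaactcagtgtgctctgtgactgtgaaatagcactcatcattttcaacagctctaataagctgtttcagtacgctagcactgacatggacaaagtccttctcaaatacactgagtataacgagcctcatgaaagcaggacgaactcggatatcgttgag
Mef2b: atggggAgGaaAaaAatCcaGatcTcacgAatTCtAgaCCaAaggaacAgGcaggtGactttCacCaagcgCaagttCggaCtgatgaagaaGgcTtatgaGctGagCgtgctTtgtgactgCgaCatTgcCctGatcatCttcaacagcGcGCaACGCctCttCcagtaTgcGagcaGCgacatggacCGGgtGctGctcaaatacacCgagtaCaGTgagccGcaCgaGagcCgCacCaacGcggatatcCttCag
Mef2c: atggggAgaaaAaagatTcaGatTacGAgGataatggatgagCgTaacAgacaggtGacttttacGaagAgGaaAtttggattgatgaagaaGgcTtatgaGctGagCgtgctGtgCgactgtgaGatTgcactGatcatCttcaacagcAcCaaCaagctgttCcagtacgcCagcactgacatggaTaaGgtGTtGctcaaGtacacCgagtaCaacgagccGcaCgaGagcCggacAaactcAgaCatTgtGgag
Mef2d: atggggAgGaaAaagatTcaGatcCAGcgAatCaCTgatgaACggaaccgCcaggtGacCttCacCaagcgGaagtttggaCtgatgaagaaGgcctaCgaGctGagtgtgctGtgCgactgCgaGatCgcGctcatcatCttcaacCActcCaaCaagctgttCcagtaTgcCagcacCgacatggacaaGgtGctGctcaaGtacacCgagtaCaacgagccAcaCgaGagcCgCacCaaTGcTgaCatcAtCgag
Over these 258 bases Mef2a was 81.0% identical to Mef2c, 77.5% to Mef2d and 74.8% to Mef2b. Of the 58 bases at which Mef2d differed from Mef2a, 47 were last bases of a codon. The longest run shared between Mef2a and another member was 17 bases, with Mef2c, and the longest shared by any pair was 31 bases, between Mef2b and Mef2c.

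Values are FPKM, fragments per kilobase of transcript and per M mapped fragments, so levels can be compared between genes per length. Depth, recovered from the steps between low values, was 15.84 to 17.51 M fragments in sham and 13.39 to 16.46 M in AAN mice. Sham mouse 2 had the fewest genes above 0, 16690 of 21792. Sham mouse 1 and AAN mouse 2 stood apart in genes with long transcripts: the median log2 FPKM of genes whose longest transcript had at least 5000 bases, minus that of genes with at most 2000, was -0.72 and -0.73 in them and -1.52 to -1.22 in the 8 other mice. Summed proximal tubule markers ran from 1670 to 3780 FPKM in sham mice, as in cortex, and from 529 to 1970 FPKM in AAN mice. Summed leukocyte markers ran from 7.65 to 14 FPKM in sham and from 138 to 419 FPKM in AAN mice. In whole tissue, fewer cells of a type and less RNA per cell cannot be told apart.

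**Figure D1:**
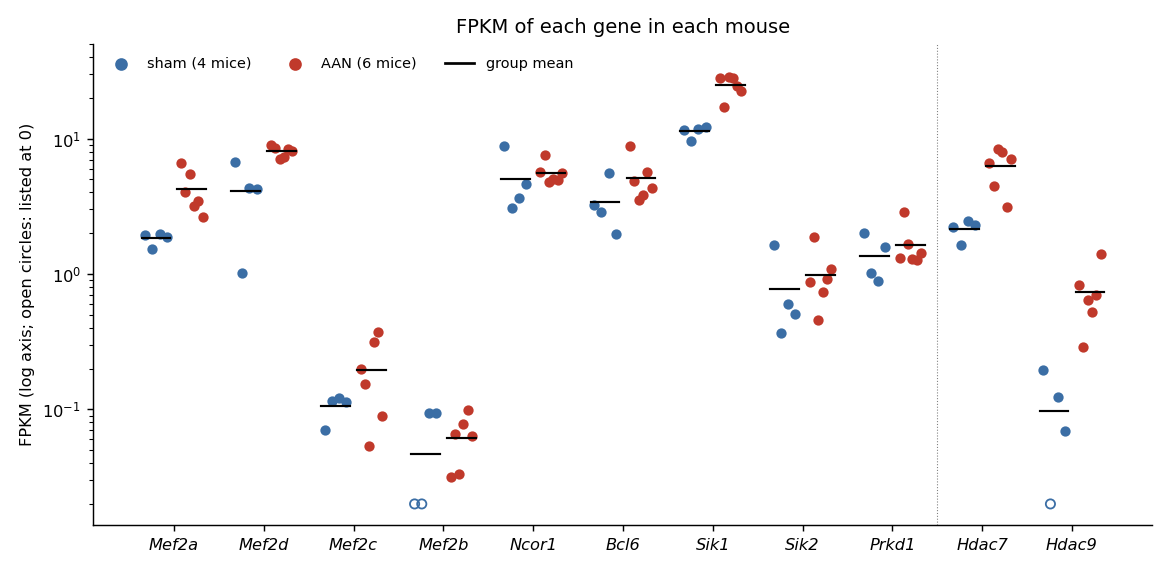
FPKM (log axis) of the 9 genes and of Hdac7 and Hdac9 in each mouse, sham in blue and AAN in red, with the group mean as a line and values listed at 0 as open circles. Every AAN mouse lay above every sham mouse in Mef2a, Mef2d, Sik1, Hdac7 and Hdac9, and the groups overlapped in the other 6 genes.

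Of the 9 genes, Sik1 had the highest level per length, at 11.3 ± 1.17 FPKM (SD, n = 4) in sham and 24.8 ± 4.51 FPKM (SD, n = 6) in AAN mice, above the next gene in all 10 mice. In sham mice Ncor1, Mef2d, Bcl6, Mef2a, Prkd1 and Sik2 followed in that order of mean FPKM, and the ranges of each of them and its neighbour overlapped. Mef2c and Mef2b came last in both groups. In AAN mice Mef2d, at 8.06 ± 0.754 FPKM (SD, n = 6), stood above Ncor1, at 5.61 ± 1.01 FPKM (SD, n = 6), in 6 of 6 mice, whereas Ncor1 had been the higher in 3 of 4 sham mice.

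Against this background, 3 of the 8 members tested passed both limits as higher in AAN mice, namely a 2-fold change or more and an adjusted p not above 0.05 in limma fitted to log2(FPKM + 0.1). Across all 17129 genes tested 35.8% did so, so the share among the members was near that of genes in general. The 3 were Mef2a, Mef2d and Sik1. After median of ratios scaling or quantile normalization, both given further on, 0 members passed, where 3261 and 2546 of all genes were called higher. With the same FPKM total in every mouse these 3 still did, as did 8837 of the 17129 genes. By limma 0 members were lower, also at an unadjusted p of at most 0.05, against 3.43% of all genes. In 3 of the 9 members every AAN mouse lay above every sham mouse, against 40.3% of the genes tested. The median log2 fold change of all genes tested was 0.75, and 82.3% were above 0, so the change of each tested member is also given relative to that median.

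Mef2d had the highest mean level of the MEF2 factors in both groups, and it stood above Mef2a in every mouse but sham mouse 2. It was at 6.75, 1.02, 4.29 and 4.27 FPKM in sham mice 1 to 4 and at 7.06 to 9.02 FPKM in the AAN mice (median 8.22). The groups did not overlap, sham mouse 2 lay far below the other sham mice, and the AAN mice lay close together. The log2 fold change was 1.22 (SE 0.39, limma adjusted p = 0.0175), which is 0.48 above the median of all genes. Without sham mouse 2 it was 0.68 (limma adjusted p = 0.00913), which is under 2-fold and close to the median of all genes in that fit, 0.66. Without sham mouse 2 and AAN mouse 2 it was 0.66, against a median of 0.68. Sham mouse 2 was also the mouse with the fewest genes above 0, and the part of that in the Mef2d value was not tested. The nearest pattern over the 10 mice, after each group's mean was subtracted, was that of Tsc22d2 (r = 0.99 among 12240 genes). In Mef2d, sham mouse 2 lay farthest from its group mean, so this r rests largely on that mouse. The locus at chr3:88142372-88172086 overlaps 1700113A16Rik, and whether counting used strand is not stated, so how fragments shared with it were counted is unknown.

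Mef2a, at chr7:67231163-67372858 on the minus strand and overlapping Lysmd4, rose from a narrow sham range. It was at 1.93, 1.53, 1.98 and 1.89 FPKM in sham mice 1 to 4 and at 2.63 to 6.6 FPKM in AAN mice (median 3.75), highest in AAN mouse 1 and lowest in AAN mouse 6. The groups did not overlap, and the AAN mice were spread over a wider range than the sham mice. Its log2 fold change was 1.10 (SE 0.25, limma adjusted p = 0.00227), 0.35 above the median of all genes. Without AAN mouse 1 it was 0.96 (limma adjusted p = 0.00367), just under 2-fold. Mef2a is widely expressed, as Mef2d is, and together they made up 95.7% or more of the summed MEF2 FPKM in each mouse.

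Mef2c, at chr13:83504034-83667080 on the plus strand and known for its part in muscle, endothelium and lymphocytes, was at 0.0707, 0.116, 0.121 and 0.113 FPKM in sham mice 1 to 4. In AAN mice it ran from 0.0537 to 0.37 FPKM (median 0.176), with 4 of 6 above every sham mouse and AAN mouse 3 below all of them. The log2 fold change of 0.43 (SE 0.33, limma adjusted p = 0.28), or -0.32 relative to the median of all genes, did not pass. Over its whole exonic length these values correspond to at most 13.1 to 91.6 fragments in an AAN mouse. Its pattern within groups was nearest to that of Trat1, which encodes a T cell adaptor protein (r = 0.92). T cell markers summed to 0.617 to 2.45 FPKM in sham and 57.8 to 156 FPKM in AAN mice, and endothelial markers to 29.3 to 47.9 and 47.4 to 65.3 FPKM, and the part of either in Mef2c was not tested.

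Mef2b, at chr8:70139711-70167488 on the plus strand and overlapping Borcs8, was at or near 0. It was listed at 0 in sham mice 1 and 2, which allows up to 0.128 and 0.141 FPKM at 3 fragments over its longest transcript, a limit that covers counting error only. The other sham mice were at 0.0943 and 0.0942 FPKM, and the AAN mice ran from 0.0314 to 0.0984 FPKM. No mouse had more than 2.18 fragments, so a difference was not detectable at this depth. Its mean of 0.0558 FPKM lay under the 0.1 FPKM required for testing.

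The make-up of the MEF2 pool overlapped between the groups. Mef2d gave 38.3 to 77.1% of the summed MEF2 FPKM in sham and 56.1 to 74.4% in AAN mice, and Mef2a gave 22.1 to 57.4% and 24.2 to 43.2%. The sum itself ran from 2.66 to 8.75 FPKM in sham and from 10.9 to 15.8 FPKM in AAN mice. The 4 class IIa enzymes together stood at 0.769 to 1.64 times the MEF2 sum in sham mice and at 0.807 to 1.36 times in AAN mice. Within a mouse, log2 Mef2d minus log2 Mef2a differed by 0.12 between the groups (SE 0.53, exact permutation p = 0.8). This test did not separate the change of Mef2d from that of Mef2a.

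Since Mef2a and Mef2d were both called higher, the 260 bases from 250 before to 10 after their RefSeq start (GRCm38.p6) are shown, Mef2a at chr7:67372849-67373108 on the minus and Mef2d at chr3:88142122-88142381 on the plus strand. Capitals mark matches, on either strand, to the MEF2 consensus, the CCAAT box (CCAAT) and the GC box (GGGCGG).
Mef2a promoter: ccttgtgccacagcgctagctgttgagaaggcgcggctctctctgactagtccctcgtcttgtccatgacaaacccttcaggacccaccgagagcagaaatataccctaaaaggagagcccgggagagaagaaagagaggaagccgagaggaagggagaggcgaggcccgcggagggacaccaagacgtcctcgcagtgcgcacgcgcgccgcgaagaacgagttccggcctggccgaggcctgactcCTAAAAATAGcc
Mef2d promoter: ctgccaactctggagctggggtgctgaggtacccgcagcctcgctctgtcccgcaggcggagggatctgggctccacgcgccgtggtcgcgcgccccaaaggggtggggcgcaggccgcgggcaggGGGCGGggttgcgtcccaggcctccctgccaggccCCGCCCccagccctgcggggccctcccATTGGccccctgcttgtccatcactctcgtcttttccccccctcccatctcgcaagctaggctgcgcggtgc
In the Mef2a window the 1 match was to the MEF2 consensus, beginning 2 bases before the start and running over it. A MEF2 consensus was found in 3.19% of all 32851 promoter windows of 300 bases. The Mef2d window held 2 GC boxes, 1 CCAAT box and no MEF2 consensus, and these motifs were found in 35.7% and 37.4% of all windows. The bases were 62.3% G or C in the 300-base window of Mef2a and 72% in that of Mef2d, against a median of 52.7% over all windows. A match describes letters only, and no binding was measured.

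Ncor1, the scaffold of the NCoR complex (chr11:62316426-62458541, minus strand, overlapping Pigl and Ttc19), was not shown to differ. It was at 8.89, 3.07, 3.64 and 4.61 FPKM in sham mice 1 to 4 and at 4.82 to 7.55 FPKM in AAN mice (median 5.3). Sham mouse 1 lay above every AAN mouse, and the other 3 sham mice lay below all of them. This gave a log2 fold change of 0.25 (SE 0.26, limma adjusted p = 0.423), or -0.50 relative to the median of all genes. Without sham mouse 1 it was 0.56 (limma adjusted p = 0.0246), still under 2-fold and below the median of all genes in that fit, 0.82. Without sham mouse 2 it was 0.059 (limma adjusted p = 0.861).

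Ncor1, Prkd1 and Sik2 had in common that sham mouse 1 and AAN mouse 2 were the highest of their groups. These are the mice in which genes with long transcripts were high, and the part of this in the values was not tested. Without both mice the log2 fold change was 0.47 for Ncor1 (limma adjusted p = 0.0231), 0.28 for Prkd1 (limma adjusted p = 0.25) and 0.61 for Sik2 (limma adjusted p = 0.0738). All were under 2-fold and below the median of all genes in that fit, 0.83. Sik1 was lowest of the AAN group in AAN mouse 2. As a description, each member was correlated with the long minus short difference over the 10 mice, after group means were subtracted. There r was 0.92 for Ncor1, 0.87 for Sik2 and 0.85 for Prkd1. In the other members it ran from -0.42 (Sik1) to 0.51 (Mef2d).

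**Figure D2:**
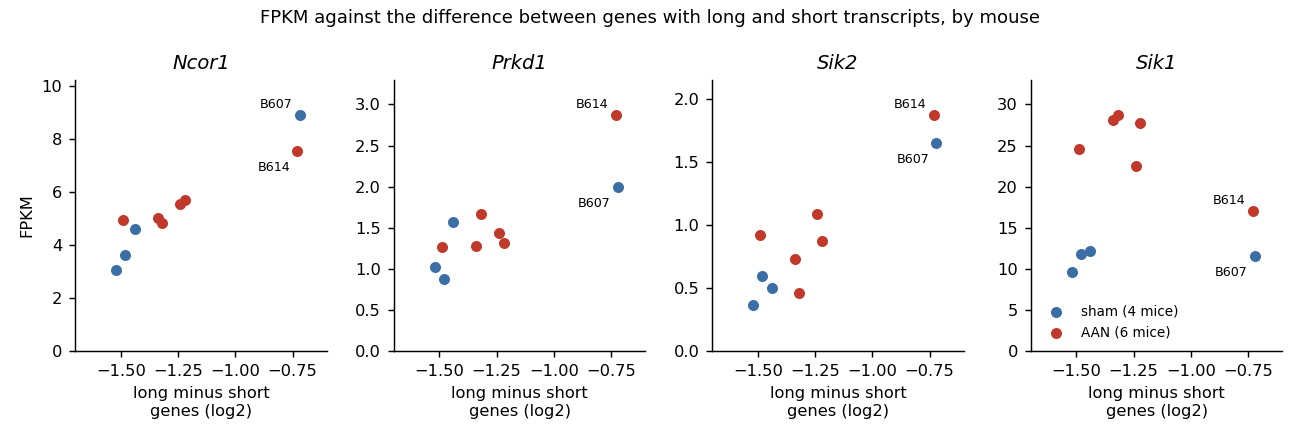
FPKM of Ncor1, Prkd1, Sik2 and Sik1 in each mouse (y axis) against the median log2 FPKM of genes with long minus short transcripts (x axis), sham in blue and AAN in red. Sham mouse 1 (B607) and AAN mouse 2 (B614) stand to the right at -0.72 and -0.73, and are the highest of their groups in Ncor1, Prkd1 and Sik2 but not in Sik1.

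Bcl6, at chr16:23965052-23988852 on the minus strand, was at 3.23, 2.87, 5.56 and 1.96 FPKM in sham mice 1 to 4 and at 3.54 to 8.76 FPKM in AAN mice (median 4.59). Sham mouse 3 lay within the AAN range, and 2 of 6 AAN mice were above every sham mouse. The log2 fold change of 0.61 (SE 0.30, limma adjusted p = 0.0975) did not pass, and it was 0.14 under the median of all genes. It was 0.39 without sham mouse 4 and 0.22 in the mice with B tags alone, and 0.88 (limma adjusted p = 0.0243) without sham mouse 3, above the median of 0.74 in that fit but under 2-fold. B cell markers summed to 0.673 to 1.28 FPKM in sham and 3.82 to 9.53 FPKM in AAN mice, and their part in Bcl6 was not tested. Bcl6 minus Ncor1 on the log2 scale differed by 0.36 (SE 0.51, exact permutation p = 0.433).

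Sik1, a salt-inducible kinase whose own transcription is driven by CREB, showed the most uniform rise of the members. It was at 11.6, 9.6, 11.8 and 12.2 FPKM in sham mice 1 to 4 and at 17 to 28.7 FPKM in AAN mice (median 26.2). The groups did not overlap, and AAN mouse 2 was the lowest of its group. The log2 fold change was 1.11 (SE 0.17, limma adjusted p = 0.000198), 0.36 above the median of all genes, and leaving out each mouse in turn gave 1.03 to 1.21. The gene lies at chr17:31844250-31855804 on the minus strand and overlaps no listed gene. Its pattern within groups was nearest to that of Rnf40 (r = 0.97).

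Sik2, the related kinase studied in fat and liver (chr9:50892801-51009073, minus strand, overlapping Ppp2r1b), was at 1.65, 0.364, 0.6 and 0.503 FPKM in sham mice 1 to 4 and at 0.46 to 1.87 FPKM in AAN mice (median 0.895). The groups overlapped almost wholly, with 1 of 6 AAN mice above every sham mouse. Its log2 fold change was 0.41 (SE 0.40, limma adjusted p = 0.392), 0.34 below the median of all genes. It was 0.80 (limma adjusted p = 0.0651) without sham mouse 1, 0.17 without sham mouse 2 and 0.21 without AAN mouse 2. Sik1 minus Sik2 on the log2 scale was higher in AAN mice by 0.70 (SE 0.53, exact permutation p = 0.229), so the 2 kinases were not shown to differ in their change.

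Prkd1, which encodes protein kinase D1 (chr12:50341231-50649098, minus strand), was at 2, 1.02, 0.884 and 1.57 FPKM in sham mice 1 to 4 and at 1.27 to 2.87 FPKM in AAN mice (median 1.38). AAN mouse 2 lay above all other mice, and the remaining AAN mice lay within the sham range. Its log2 fold change was 0.25 (SE 0.28, limma adjusted p = 0.443), or -0.49 relative to the median of all genes. With single mice left out it ran from 0.085 (without sham mouse 3) to 0.45 (without sham mouse 1).

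Ratios between genes of one mouse do not depend on a scale factor for each mouse, apart from the pseudocount, so 12 pairs were compared by exact permutation of the group labels (210 ways, two-sided), with p-values adjusted over the 12. Prkd1 against Prkd2 was lower in AAN mice after adjustment. After quantile normalization, which is no single factor, its adjusted p was 0.0571 by exact permutation. With each sham mouse left out it was 0.0714, at the smallest unadjusted p that 3 sham mice allow, and with each AAN mouse other than AAN mouse 2 left out it was 0.0635 to 0.0952.

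Prkd2 encodes another protein kinase D. Log2 Prkd1 minus log2 Prkd2 was 0.30, 0.76, 0.02 and 0.44 in sham mice 1 to 4 and ran from -1.89 to -0.57 in AAN mice, with all 6 below every sham mouse. The difference was -1.65 (SE 0.25, exact permutation p = 0.00476, the smallest these splits can give, adjusted p = 0.0286). Prkd2 was at 1.61, 0.559, 0.871 and 1.13 FPKM in sham mice 1 to 4 and at 3.27 to 5.01 FPKM in AAN mice, a log2 fold change of 1.91 (SE 0.25, limma adjusted p = 4.69e-05). Prkd1 was thus the higher of the pair in all 4 sham mice and Prkd2 the higher in all 6 AAN mice. Summed leukocyte markers were 7.65 to 14 FPKM in sham and 138 to 419 FPKM in AAN mice. Their part in the ratio was not tested. AAN mouse 2, in which genes with long transcripts were high, had the highest AAN ratio, -0.57. Prkd3, the remaining family member, had a log2 fold change of 0.21 (SE 0.19, limma adjusted p = 0.336).

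**Figure D3:**
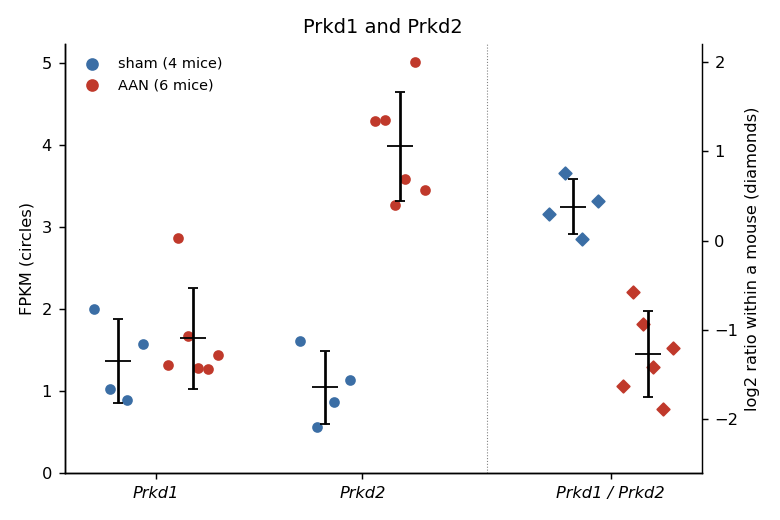
FPKM of Prkd1 and Prkd2 in each mouse as circles, with their log2 ratio within each mouse as diamonds on the right-hand axis. Sham mice are blue, AAN mice red, and black marks give the group mean ± SD. The 6 AAN ratios lie below the 4 sham ratios.

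After adjustment 10 pairs did not pass. Of these Hdac9 minus Mef2c came nearest, higher in AAN mice by 1.64 (SE 0.57, exact permutation p = 0.0381, adjusted p = 0.152). Hdac9 minus Mef2a differed by 0.97 (SE 0.45, exact permutation p = 0.081, adjusted p = 0.206) and Hdac9 minus Mef2d by 0.85 (SE 0.38, exact permutation p = 0.0857, adjusted p = 0.206). Hdac7 minus Mef2d differed by 0.22 (SE 0.53, exact permutation p = 0.648) and Hdac7 minus Mef2c by 1.02 (SE 0.45, exact permutation p = 0.11). The ratios with Mef2c rest on its few fragments, and those of Hdac9 depend on the pseudocount. With a pseudocount of 1 Hdac9 minus Mef2a was -0.20 and Hdac9 minus Mef2d -0.35. With 0.01 they were 2.16 (exact permutation, adjusted p = 0.0286) and 2.04 (adjusted p = 0.019), past the limit.

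The direction of 5 members depended on how the mice were scaled. On the deposited scale all 8 members tested had log2 fold changes above 0. After scaling by the median of ratios, which brought the median of all genes from 0.75 to 0.065, Mef2a was at 0.36 (limma adjusted p = 0.251), Mef2d at 0.48 (limma adjusted p = 0.268) and Sik1 at 0.35 (limma adjusted p = 0.122), and 0 members passed. Mef2c, Ncor1, Bcl6, Sik2 and Prkd1 were then below 0. After quantile normalization, which put the median at -0.10, Ncor1 was at -0.51 (limma adjusted p = 0.0491) and Prkd1 at -0.80 (limma adjusted p = 0.0265), both lower but under 2-fold, and Sik1 at 0.61 (limma adjusted p = 0.0224). Mef2a, Mef2d and Sik1 stayed above the median of all genes and Mef2c, Ncor1, Bcl6, Sik2 and Prkd1 below it under each of these 3 scales. With the same FPKM total in every mouse, which put the median at 1.07, all 8 members tested stayed above 0. Mef2a was then at 1.44 (limma adjusted p = 0.00114), Mef2d at 1.57 (limma adjusted p = 0.0127) and Sik1 at 1.47 (limma adjusted p = 0.000216), and these 3 were called. Of all genes tested, 8837 were called higher on that scale. Mitochondrial genes took 39.5 to 61.4% of the summed FPKM in sham and 21.4 to 55.0% in AAN mice, and their part in the scale was not tested.

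**Figure D4:**
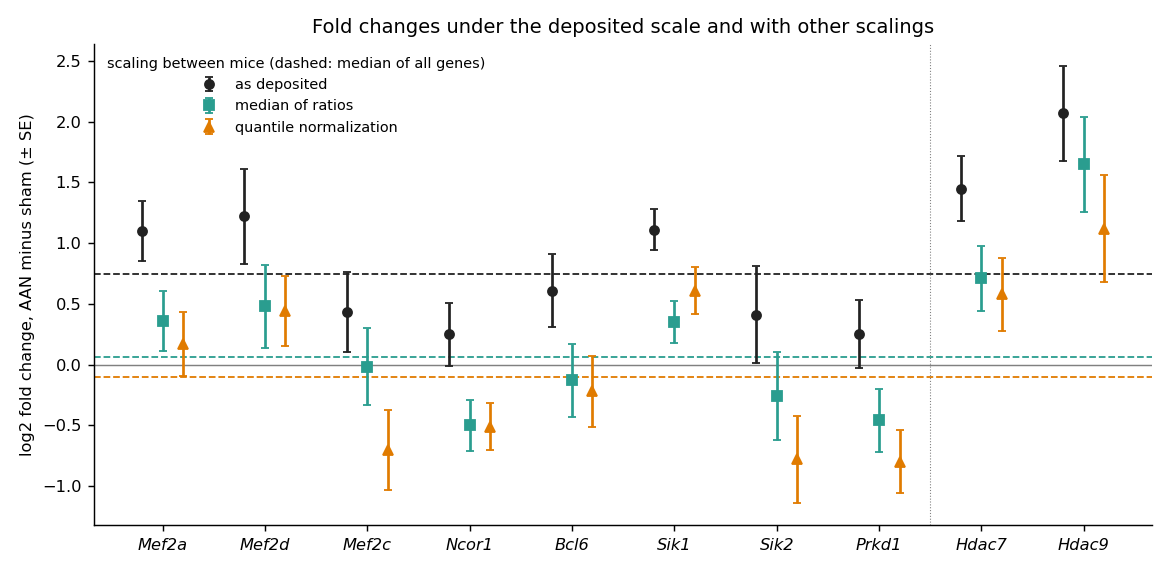
Log2 fold change of AAN minus sham (± SE) for the 8 tested members and for Hdac7 and Hdac9, on the deposited FPKM (black circles), after median of ratios scaling (green squares) and after quantile normalization (orange triangles). Dashed lines give the median of all genes under each scaling, 0.75, 0.065 and -0.10. Mef2a, Mef2d and Sik1 lie above their line and the other 5 members below it in each.

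Hdac9 and Hdac7 served as the reference for the relation across mice. Hdac9 was at 0.194, 0, 0.124 and 0.0686 FPKM in sham mice 1 to 4, where the 0 allows up to 0.0239 FPKM at 3 fragments, and at 0.288 to 1.41 FPKM in AAN mice. Hdac7 was at 2.21, 1.63, 2.45 and 2.29 FPKM in sham mice and at 3.14 to 8.43 FPKM in AAN mice. Neither overlapped between the groups, so correlations were taken only within the 6 AAN mice, where 720 pairings allow a smallest exact p of 0.00139. The 4 sham mice were too few.

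None of the 18 relations between a member and Hdac9 or Hdac7 in the AAN mice had an unadjusted or adjusted exact permutation p of at most 0.05, by Pearson's r or by Spearman's rho. The smallest adjusted p was 0.825 for r and 0.612 for rho. With Hdac9, r was -0.21 for Mef2a, 0.044 for Mef2d, -0.49 for Ncor1, 0.13 for Bcl6, 0.41 for Sik1 and -0.67 for Prkd1. With Hdac7, r was 0.18 for Mef2a, -0.56 for Mef2d, -0.28 for Ncor1, -0.36 for Bcl6 and 0.51 for Sik1. The strongest rank relation was that of Bcl6 with Hdac7, rho = -0.83 (exact permutation p = 0.0583, adjusted p = 0.612, n = 6). With so few mice these p-values do not show that the genes vary independently.

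Several of these values changed when 2 mice were left out, which leaves 4. Without the 2 mice farthest from the Hdac9 median (AAN mice 2 and 6), r with Hdac9 went from -0.21 to 0.72 for Mef2a, from 0.044 to 0.84 for Mef2d and from -0.49 to 0.66 for Ncor1. Without the 2 farthest from the Hdac7 median (AAN mice 2 and 5), r with Hdac7 went from -0.56 to -0.98 for Mef2d and from 0.51 to 0.47 for Sik1. Hdac9 and Hdac7 themselves had r = 0.26 (exact permutation p = 0.6) and rho = -0.029 (exact permutation p = 1, n = 6).

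**Figure D5:**
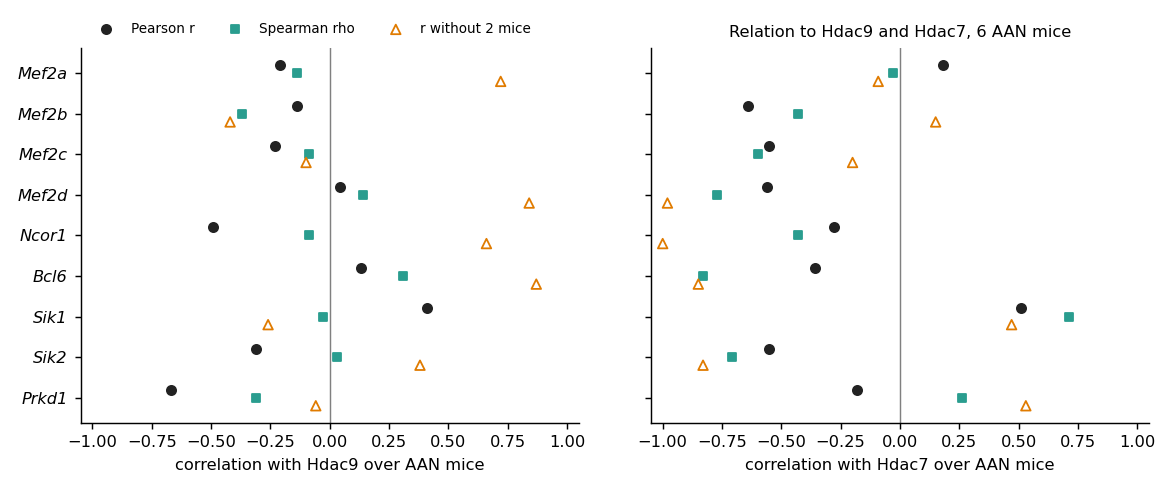
Correlation (x axis) of log2(FPKM + 0.1) of each of the 9 genes with Hdac9 (left) and Hdac7 (right) over the 6 AAN mice. Black circles are Pearson's r, green squares Spearman's rho and orange triangles r without the 2 mice farthest from the median of the enzyme, and several signs change between them.

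The other genes of the pathway were taken as 7 lists of 57 genes by role, of which 31 were called higher and 1 lower on the deposited scale, against 35.8% and 3.43% of all genes tested. The lists were chosen with earlier results of these data known, so their shares describe them and are no test. Of the 4 class IIa deacetylases, Hdac7 and Hdac9 were called higher, with log2 fold changes of 1.45 (SE 0.27) and 2.07 (SE 0.39). Hdac7 was no longer called after median of ratios scaling, at 0.71 (limma adjusted p = 0.053), or after quantile normalization, at 0.58 (limma adjusted p = 0.131). Hdac9 was still called after median of ratios scaling, at 1.65 (limma adjusted p = 0.00488). It was not called after quantile normalization, at 1.12 (limma adjusted p = 0.0595), or with a pseudocount of 1, at 0.64, which is under 2-fold. With the same FPKM total in every mouse both were called, Hdac7 at 1.80 (limma adjusted p = 0.000172) and Hdac9 at 2.24 (limma adjusted p = 0.000432). Hdac4 at 0.69 (limma adjusted p = 0.00536) and Hdac5 at 0.71 (limma adjusted p = 0.00334) were under 2-fold and just below the median of all genes, 0.75. In all 4 every AAN mouse lay above every sham mouse, as in 40.3% of the genes tested. Of the 6 partners in the NCoR and BCL6 complexes, 2 were called higher, against 35.8% of all genes: Bcor, a BCL6 corepressor, rose by 1.34 (SE 0.20, limma adjusted p = 0.000119) and Gps2, a subunit of the NCoR complex, by 1.06 (SE 0.26, limma adjusted p = 0.0039) on the log2 scale. Hdac3, the catalytic subunit, had 0.75 (SE 0.19, limma adjusted p = 0.0056), the same as the median of all genes.

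Among 14 other kinases that act on class IIa deacetylases or on the SIK kinases, 5 were called higher and 0 lower, a share near the 35.8% of all genes tested, with a median log2 fold change of 0.64 against 0.75 for all genes. By limma the largest was Camk1d, a calmodulin-dependent kinase, at 0.124 to 0.284 FPKM in sham and 2.77 to 4.83 FPKM in AAN mice, a log2 fold change of 3.43 (SE 0.23, limma adjusted p = 2.92e-07). Camk4, known from T cells and neurons, was at 0 in 3 of 4 sham mice and at 0.246 to 0.488 FPKM in AAN mice. Its fitted log2 fold change of 2.16 depends on the pseudocount. Sik3 was at 0.38 (SE 0.39, limma adjusted p = 0.409). Of 7 genes for 14-3-3 proteins, which hold phosphorylated deacetylases in the cytoplasm, 3 were called higher: Sfn at 2.29 (SE 0.17), Ywhah at 1.75 (SE 0.24) and Ywhag at 1.37 (SE 0.52). This share too was near the 35.8% of all genes, and the list's median was 0.77 against 0.75. Ywhag overlapped between the groups and the 2 others did not.

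Of 7 known MEF2 targets, 5 were called higher and 0 lower, with a median log2 fold change of 1.69, against 35.8% called higher and a median of 0.75 over all genes. Klf6 went from 3.76 to 6.36 FPKM in sham to 23.6 to 53.1 FPKM in AAN mice (log2 fold change 2.99, SE 0.25). Klf4 rose by 2.38 (SE 0.27) and the AP-1 factor Jun by 1.74 (SE 0.23). The 2 not called were Ppargc1a at 0.0075 and Slc2a4, the insulin-regulated glucose transporter, at -0.84 (SE 0.25, limma adjusted p = 0.0117). The list was chosen with earlier results known, other factors drive these genes too, and MEF2 activity was not measured. A list of 9 genes held CRTC coactivators and CREB targets, substrates and readouts of SIK kinases, and Creb1 itself. In it 5 were called higher and 1 lower, against 35.8% and 3.43% of all genes. Fos rose by 2.39 (SE 0.28) and Nr4a2 by 1.35 (SE 0.28). Pck1, the gluconeogenic enzyme of the proximal tubule, fell by 1.98 (SE 0.45, limma adjusted p = 0.0027). AAN mouse 2, at 385 FPKM of Pck1, lay within the sham range of 294 to 550 FPKM and had the highest proximal tubule marker sum of the AAN mice, 1970 FPKM.

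Of 10 known BCL6 targets, 9 were called higher, with a median log2 fold change of 3.09, against 35.8% and a median of 0.75 over all genes. Cd44 rose by 5.48 (SE 0.26), the chemokine Cxcl10 by 4.60 (SE 0.30) and the cell cycle inhibitor Cdkn1a by 3.94 (SE 0.27), and Id2 was not called at -0.32 (SE 0.22, limma adjusted p = 0.209). Several genes of this list are also expressed by leukocytes, whose 6 markers were all called higher with a median of 4.35, and the part of those cells in the list was not tested. Ncor1 at 0.25 and Bcl6 at 0.61 were themselves not called, and BCL6 activity was not measured. The list of BCL6 targets too was chosen with earlier results of these data known.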

How the data were processed

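Cortex RNA of 4 sham and 6 AAN mice was sequenced by the authors as paired-end TruSeq libraries on a HiSeq Xten. After removal of rRNA and poor reads they aligned to GRCm38 with HISAT2 and deposited FPKM per known gene from StringTie, 21792 genes in each mouse. The authors' own differential test used edgeR. FPKM are not counts, so limma 3.58.1 in R 4.3.3 (lmFit, eBayes with trend and robust) took its place here, on log2(FPKM + 0.1), two-sided, in the 17129 genes that averaged 0.1 FPKM or more, with Benjamini-Hochberg adjustment over all genes tested. Fold changes on this scale understate those of low genes. A gene was called where it changed 2-fold or more with an adjusted p not above 0.05, the authors' limits. The script was tested on simulated data.

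Single values were compared by exact permutation in Python 3.11.15. Depth came from steps between values under 0.3 FPKM in genes with 1 transcript, of which 95.1 to 97.0% were whole fragments within 0.05, against 13.7 to 15.1% in genes with several transcripts, so counts were not recovered for the latter. Symbols and positions came from GENCODE M21 (GRCm38), which names 21650 of the 21792 genes, and promoter windows, matched for 8 of the 9 members, from RefSeq (GRCm38.p6). The authors' annotation release and strand use are not given in the sources used here.

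The members and lists were chosen with earlier results of these data known. The genes named are the members, the 4 class IIa deacetylases, of each list up to 3 called genes with the largest absolute log2 fold change, and for each member the gene most alike in pattern. Prkd3, Hdac3, Sik3, Ppargc1a, Slc2a4 and Id2 were named after their values were seen. Alternatives were other pseudocounts (1 and 0.01), filters, scalings and variance models, omission of each mouse, and a fit to B-tagged mice alone. Leaving out sham mouse 1 or 2 together with AAN mouse 2 was chosen after seeing the data. Mice are separate animals, and no batch is given in the labels. The result of 1 of the 12 gene pairs is not reported here, though the pair is kept in the adjustment and in counts of pairs.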

Additional observations from a re-analysis of the deposited data

Results flagged for a closer look

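In AAN mouse 2, Ncor1 stood at 7.55 FPKM against 4.82 to 5.71 FPKM in the other 5 AAN mice, and Prkd1 stood at 2.87 FPKM against 1.27 to 1.67 FPKM, gaps that pass Dixon's 95% limit for 6 values. Of 46 groups of values examined 2 passed, where chance at 1 in 20 would give 2.3. Genes with long transcripts were also high in this mouse, and their part in the values was not tested. Without AAN mouse 2, the log2 fold change was 0.16 for Ncor1 (limma adjusted p = 0.605) and 0.09 for Prkd1 (limma adjusted p = 0.752).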

How the results depend on the processing

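The count of genes called higher, 6126, was 2909 with a pseudocount of 1, 4025 among genes averaging 1 FPKM or more and 3261 after median of ratios scaling. It was 2546 after quantile normalization, 8837 with the same FPKM total in every mouse and 9482 with no fold limit. Genes called lower, 588, were 1801 after median of ratios scaling, 1992 after quantile normalization, 332 with the same FPKM total in every mouse and 1027 with no fold limit. Of the members, 3 were called on the deposited scale and the same 3 with the same FPKM total in every mouse. With a pseudocount of 1 it was 1 (Sik1), after median of ratios scaling 0 and after quantile normalization 0. Mef2a and Sik1 or Mef2d and Sik1 were called where sham mouse 2 or AAN mouse 1 was left out. In the mice with B tags Mef2a was at 0.97. The signs that turned after median of ratios scaling were those of Mef2c (-0.016), Ncor1 (-0.50), Bcl6 (-0.13), Sik2 (-0.26) and Prkd1 (-0.46), and after quantile normalization those of Mef2c (-0.70), Ncor1 (-0.51), Bcl6 (-0.22), Sik2 (-0.78) and Prkd1 (-0.80). Without sham mouse 2 and AAN mouse 2, Ncor1 was at -0.029, Sik2 at -0.026 and Prkd1 at -0.019. The cause was not tested. Of 174 member values under the alternatives, 149 kept direction and call. They include those with no fold limit, where the fold changes are the same and only the call could change.

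Of the gene pair ratios, 2 passed the adjusted limit, against 6 with a pseudocount of 1, 4 with 0.01, 0 after quantile normalization, 0 in the mice with B tags, 0 without either combination of 2 mice, and 0 to 2 with each mouse left out. The pairs gained were Mef2c against Mef2a, Mef2d, Hdac7 and Hdac9 with a pseudocount of 1, and Hdac9 against Mef2a and Mef2d with 0.01. With 3 sham mice and 6 AAN mice the smallest exact permutation p is 0.0119. With only 2 pairs at it their adjusted p is 0.0714, so they could not pass the limit. In the mice with B tags, and without either combination of 2 mice, the smallest exact permutation p is 0.0179. There 2 pairs alone at it reach an adjusted p of 0.107, as they did in the mice with B tags. With other pairs at or near it, the 2 reached 0.0714 without sham mouse 2 and AAN mouse 2. They reached 0.0857 without sham mouse 1 and AAN mouse 2, and passed in none of these fits. With each mouse left out, Prkd1 minus Prkd2 ran from -1.79 to -1.52. Signs turned for Hdac9 minus Mef2a (-0.20) and Hdac9 minus Mef2d (-0.35) with a pseudocount of 1, Hdac7 minus Mef2d with a mouse left out (-0.081 without sham mouse 1, to 0.65), Mef2d minus Mef2a likewise (-0.34 without sham mouse 2, to 0.42) and without sham mouse 2 and AAN mouse 2 (-0.36), and Bcl6 minus Ncor1 in the mice with B tags (-0.017). Of 18 correlations, 0 passed under each alternative that gives a p. Signs turned without 2 mice for Mef2a (0.72), Ncor1 (0.66), Sik1 (-0.26) and Sik2 (0.38) with Hdac9 and for Mef2a (-0.092), Mef2b (0.15) and Prkd1 (0.53) with Hdac7, as Spearman's rho for Sik1 (-0.029) and Sik2 (0.029) with Hdac9 and Mef2a (-0.029) and Prkd1 (0.26) with Hdac7, and after median of ratios scaling for Mef2d (-0.55) and Bcl6 (-0.034) with Hdac9. Mef2b, untested by the filter, had a log2 fold change of 0.20 (limma adjusted p = 0.511) with no filter. No paired analysis was possible because no tag is shared between sham and AAN mice. Depth limited Mef2b and Mef2c most.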

Other observations

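The most alike pattern of each member was sought among genes averaging 1 FPKM or more, as Pearson's r of log2(FPKM + 0.1) over the 10 mice after the group means were subtracted, a description in which depth and the length effect are shared by the points. Beside the genes named above, Mef2a was most like AA986860 (r = 0.85), Ncor1 most like Fam120c (r = 0.99), Bcl6 most like Hgh1 (r = 0.87), Sik2 most like Rab11fip5 (r = 0.98) and Prkd1 most like Hpn (r = 0.97). Mef2b was most like Hacd2 (r = 0.97), on 0 to 2.18 fragments a mouse.

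Prkd1, with 1 annotated transcript, was the member with fragments recovered directly, 53.1 to 128 in sham and 62.8 to 164 in AAN mice. Its RefSeq promoter window was 77.3% G or C with 6 GC boxes, and that of Sik2 was 80% G or C with 8. Of 2 promoter windows listed for Bcl6, 1 held 3 matches to the STAT motif TTCNNNGAA, which was found in 8.3% of all windows, and the other held 1.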
